A study of Mus musculus with 10 samples.

Results

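Double-positive mouse embryonic stem (ES) cells, which carried signal from reporters of both Esrrb and Tbx3, were compared with double-negative cells of the same line, which carried neither. The comparison uses 4 of the 10 libraries of the series, 2 per fraction. Each fraction has 1 merged value per row of the deposited table, in FPKM, a read count scaled to transcript length and to all mapped fragments. Of 32361 rows, 13131 had at least 1 FPKM in 1 or both of these fractions and were compared, as the difference of log2(FPKM + 1), double-positive minus double-negative. With 1 value per fraction there is no replicate spread, so every difference below is a size without an error or a test, and a row counts as higher or lower where it reached 2-fold on that scale.

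All cells were of the E14Tg2a.4 line. The double-negative, single-positive (Esrrb-positive, Tbx3-negative) and double-positive fractions were sorted from 1 double knock-in line, in which each gene carries its own fluorescent protein. The Zscan4c-negative and Zscan4c-positive fractions came from another line, with a reporter driven by a Zscan4c promoter fragment on a piggyBac vector. Replicates were taken on different days. The labels name no treatment, and no line without a reporter is among the groups. In bulk RNA, fewer cells of a type and less RNA per cell cannot be told apart.

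Mouse ES cells in culture move between a naive state, close to the early epiblast of the blastocyst, and states nearer to the epiblast about to leave pluripotency, called formative or primed. Esrrb, an orphan nuclear receptor, and Tbx3, a T-box factor, belong to the transcription factor network of the naive state, with Nanog, Klf4, Tfcp2l1 and Zfp42. Pou5f1 and Sox2 are kept in both states, and Pou3f1, Otx2, Fgf5 and the de novo DNA methyltransferases are raised as the naive network is lost.

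Where 3 levels stand together below, they are FPKM of the double-negative, the single-positive and the double-positive fraction, in this order. Transcripts of the reporter genes followed the sort. Tbx3 was at 0.638, 1.75 and 12.6 FPKM. Esrrb was at 43.3, 177 and 243, so its transcript was still present in cells sorted as negative. Tcl1, a cofactor of the kinase AKT, was at 13.6, 80.8 and 141 FPKM and the CP2-family factor Tfcp2l1 at 11.8, 63.0 and 85.7. All of these naive markers were lowest in double-negative and highest in double-positive cells, by 2.46 for Esrrb and 3.28 for Tcl1 on the log2 scale.

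Marker transcripts of other cell types were high in double-negative cells. The rule set apart 859 of the 13131 rows compared. Their value in double-positive, Zscan4-negative and Zscan4-positive cells alike did not exceed 0.25 of that in double-negative cells. Their direction follows from that choice. They held 18 of 19 fibroblast, 12 of 18 T lymphocyte and 3 of 5 NK lymphocyte markers compared, among them the collagen gene Col1a1 (477, 348 and 6.32 FPKM), Cd3g (153, 110 and 2.35) and the granzyme gene Gzma (223, 151 and 2.78). The summed level of all 21 fibroblast markers was 2526, 1882 and 272 FPKM. In double-positive cells Fn1 alone, a matrix gene of many cells that was not set apart, was at 231. None of the 21 was at 0 in these 3 fractions. Other lists held fewer such rows: smooth muscle 2 of 6, skeletal muscle 1 of 3, macrophage 1 of 2, endothelium 1 of 9, and B lymphocyte, erythroid, neuron, hepatocyte and epithelial markers none of 2, 2, 9, 3 and 8. Among the neuron markers Stmn2, Nefl and Tubb3 were higher in double-positive cells, and Syp was lower. The purine salvage gene Hprt, which E14Tg2a cells lack, was at 28.0, 19.3 and 0.954 FPKM and was set apart too. In all, the set-apart rows took 2.41% of the summed FPKM of double-negative, 1.57% of single-positive and 0.114% of double-positive cells. The single-positive to double-negative ratio, which the rule did not use, had a median of 0.695 over these rows, and 73.6% of them lay between 0.6 and 0.8.

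Without those rows, 518 rows (3.94% of those compared) were at least 2-fold higher in double-positive cells and 831 (6.33%) at least 2-fold lower. The remaining 10923 reached neither size, and the median difference of all 13131 rows was -0.02. These counts depend on the settings: adding 5 FPKM in place of 1 gave 261 higher and 239 lower rows, and setting apart at a ratio of 0.5 left 308 lower ones. Every count of list members below is to be read against 3.94% for higher and 6.33% for lower rows, and set-apart members count as neither. Counts of set-apart members are to be read against 859 of 13131 rows. The higher rows comprised 462 protein-coding genes and 17 long noncoding RNAs, with a median difference of 1.36. Their median level was 4.8, 12.1 and 18.6 FPKM. The lower rows comprised 771 protein-coding genes and 13 long noncoding RNAs, with a median difference of -1.32 and median levels of 8.50, 5.12 and 2.33 FPKM.

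**Figure D1:**
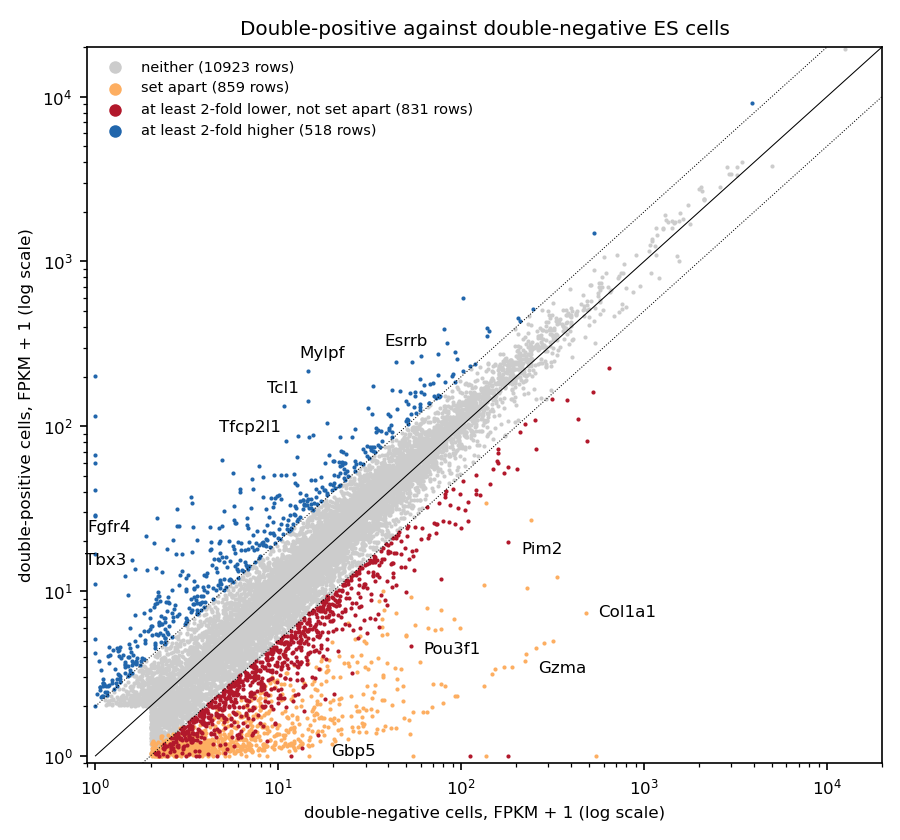
FPKM + 1 of each of the 13131 rows in double-negative (horizontal) and double-positive cells (vertical), both on log scales, with the line of equality and dotted lines at 2-fold. The 518 higher rows lie above the upper dotted line. The 859 set-apart rows lie below the line of equality, most of them at low levels, with Col1a1 and Gzma farther to the right.

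The naive pluripotency factors were the list with the largest share on the higher side. Of 18 compared, 16 were at least 2-fold higher, against 3.94% of all rows, and the list median was 2.31. The 16 include Esrrb and Tbx3, whose reporters defined the sort, so their direction follows from it. Besides the 4 markers the 16 held the zinc finger factors Zfp42 (101, 428 and 601), Klf4 (14.5, 65.5 and 87.0), Klf2 (138, 262 and 395), Klf5 (54.2, 92.4 and 129), Prdm14 (2.36, 12.7 and 16.2) and Zfp57 (59.6, 112 and 159). The homeodomain factor Nanog was at 79.8, 278 and 388 FPKM. The nuclear receptors Nr0b1 and Nr5a2 were at 32.0, 109 and 174 and at 5.76, 22.4 and 26.6. Dppa3, a maternal factor that guards DNA methylation in the egg, was at 8.46, 31.3 and 49.6 FPKM, the growth factor gene Fgf4 at 33.4, 62.3 and 91.8, and the cell cycle factor gene Mybl2 at 88.4, 155 and 202. Every one of these 16 had its single-positive value between the double-negative and double-positive ones. Gbx2 and Stat3 did not pass: the homeobox gene Gbx2 was at 45.5, 26.2 and 23.3 FPKM, with 52.3 in Zscan4-negative cells, and Stat3, which carries the LIF signal, at 30.6, 33.0 and 32.7. This list was written with earlier results of these data known, as were all others, and is no independent evidence of its direction.

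Factors that naive and primed cells share differed less, with a median of 0.54 and 1 of 15 rows past 2-fold. That row was Sox2, at 209, 347 and 437 FPKM. Pou5f1, the core pluripotency factor also called Oct4, was at 1987, 2196 and 2739 FPKM, a difference of 0.46, and Dppa5a at 1308, 1550 and 1922.

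Formative and primed epiblast genes stood on the other side: 13 of 20 were at least 2-fold lower in double-positive cells, against 6.33% of all rows, none was higher and the median was -1.52. The POU factor Pou3f1 was at 52.0, 5.30 and 3.66 FPKM, and the kinase gene Pim2 at 180, 20.0 and 18.9. Car4, a carbonic anhydrase gene, was at 17.1, 2.04 and 1.23, the lysophospholipase gene Enpp2 at 12.8, 1.53 and 0.874, and the SOX factors Sox3 and Sox11 at 14.8, 2.5 and 1.99 and at 11.6, 2.77 and 2.19. The growth factor Fgf5, a common marker of this state, was low throughout, at 3.73, 0.206 and 0.423 FPKM. In 10 of the 13 the single-positive value was under 0.5 of the double-negative one. Sox4, Lef1 and the homeobox gene Otx2 were the others, with ratios of 0.703, 0.608 and 0.553. The neural and epiblast factors Zic2 (23.5, 31.0 and 47.9 FPKM) and Zic5 were on the opposite side, with differences just short of the size rule, 0.93 for Zic5.

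**Figure D2:**
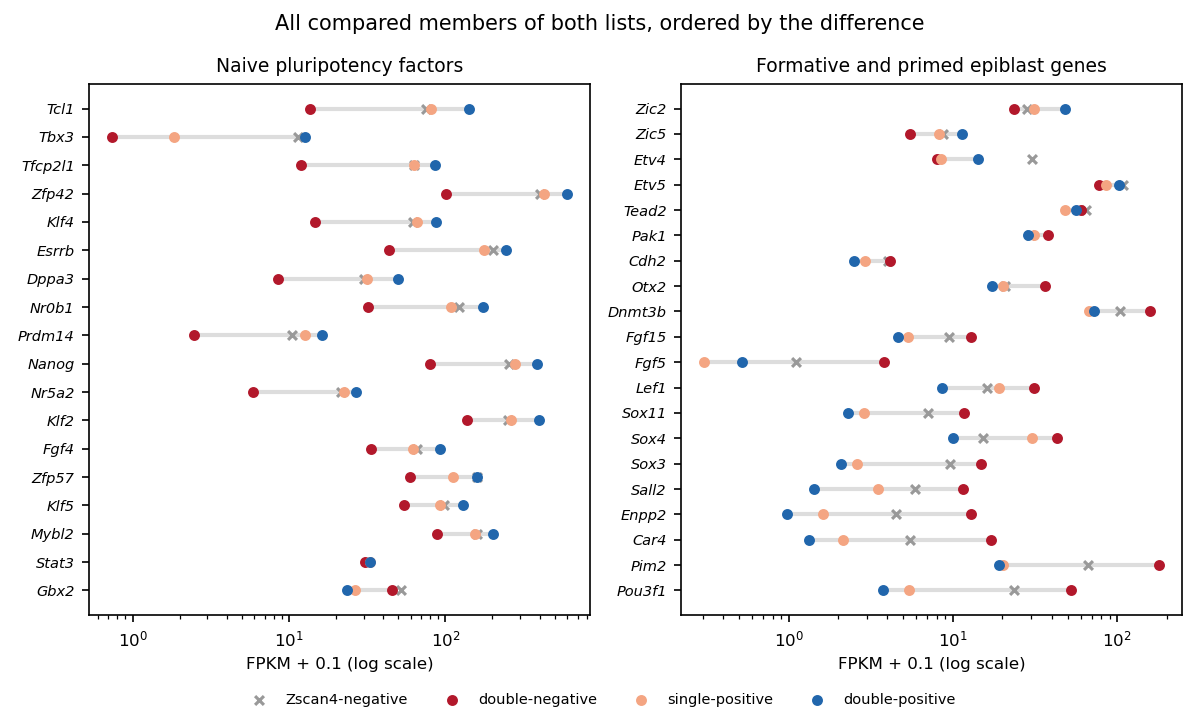
FPKM + 0.1 (log scale) of the 18 naive and 20 formative or primed genes compared, with 1 point per fraction and a bar spanning the double-negative, single-positive and double-positive values. Double-positive points lie to the right for 16 naive factors, and for the 13 lower formative genes double-negative points lie to the right.

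The 25 largest positive differences among coding and long noncoding genes with at least 5 FPKM ran from 2.69 to 3.90. Mylpf on chromosome 7 (chr7:127211608-127214287, mm10), a fast skeletal muscle myosin light chain gene, led, at 13.5, 107 and 216 FPKM. Myod1, which directs the skeletal muscle program, was set apart and at 0.0509 FPKM in double-positive cells, and 1 of the 3 muscle markers compared, Mylpf itself, was higher. The germline and oocyte list had 6 of 25 rows higher, against 3.94% of all rows, none lower and 1 set apart. The higher ones were Khdc3 (2.38, 22.2 and 33.1 FPKM) and Ooep (30.8, 59.8 and 74.0) of the subcortical maternal complex, Lrrc34 (4.64, 37.1 and 51.2), the X-linked homeobox genes Rhox6 (1.15, 9.34 and 12.9) and Rhox9 (1.75, 13.1 and 15.8), and Morc1 (43.7, 89.9 and 127), which acts in transposon silencing in male germ cells. Lrrc34 overlaps Lrriq4 in the table, so reads may be shared between these.

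Several cell junction genes were higher. Among connexin genes, whose products form gap junction channels, Gjb5 on chromosome 4 (chr4:127354809-127358164, mm10) was at 1.79, 17.5 and 30.5 FPKM and Gjb1 at 1.30, 11.2 and 12.0. Gja1, the main connexin by level, ran the other way without reaching 2-fold, at 180, 93.6 and 107 FPKM. The tight junction genes Cldn4 (39.1, 71.7 and 96.5) and Tjp3 (6.68, 11.4 and 16.9) were higher among 15, and the desmosome gene Dsg2 (4.65, 6.48 and 10.4) among 14 cadherin and desmosome genes. The tight junction list had a median of -0.13, with a negative difference in 10 of its 15 members. The matrix genes Nid1 (18.9, 51.0 and 60.9 FPKM) and Lama1 (2.21, 7.07 and 11.6), both of basement membranes, were higher as well. Nid1 was the 1 higher of 10 laminin and basement membrane genes, with none lower and 1 set apart. Lama1 was the 1 higher of 9 primitive endoderm genes, with 1 lower and 5 set apart. Those set apart include the collagen genes Col4a1 (19.3, 13.5 and 0.583) and Col4a2 (9.12, 6.22 and 0.348). Of 15 integrin genes 2 were higher, Itga9 (2.11, 8.42 and 11) and Itgb7 (15.3, 30.3 and 32.7), Itgb5 was lower (23.1, 18.1 and 10.5) and 4 were set apart.

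Transcription factors outside the naive list included the AP-2 factor Tfap2c at 6.84, 48.8 and 56.4 FPKM. Tead4, a TEAD factor that trophectoderm requires, was at 1.25, 5.34 and 7.72, and the SOX factor Sox21 at 0.916, 8.12 and 12.5. Of 9 AP-2, TEAD and GRHL factors 3 were higher, against 3.94% of all rows, and none lower. Among trophectoderm genes Sox21 was the 1 higher of 8, while the keratin gene Krt18 was lower (10.2, 2.16 and 2.87) and 3 were set apart. Other KLF factors differed less than Klf4: Klf8 was at 7.39, 16.0 and 22.0 and Klf15 at 5.81, 9.27 and 12.6, while Klf7 was lower (6.39, 3.22 and 2.60).

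**Figure D3:**
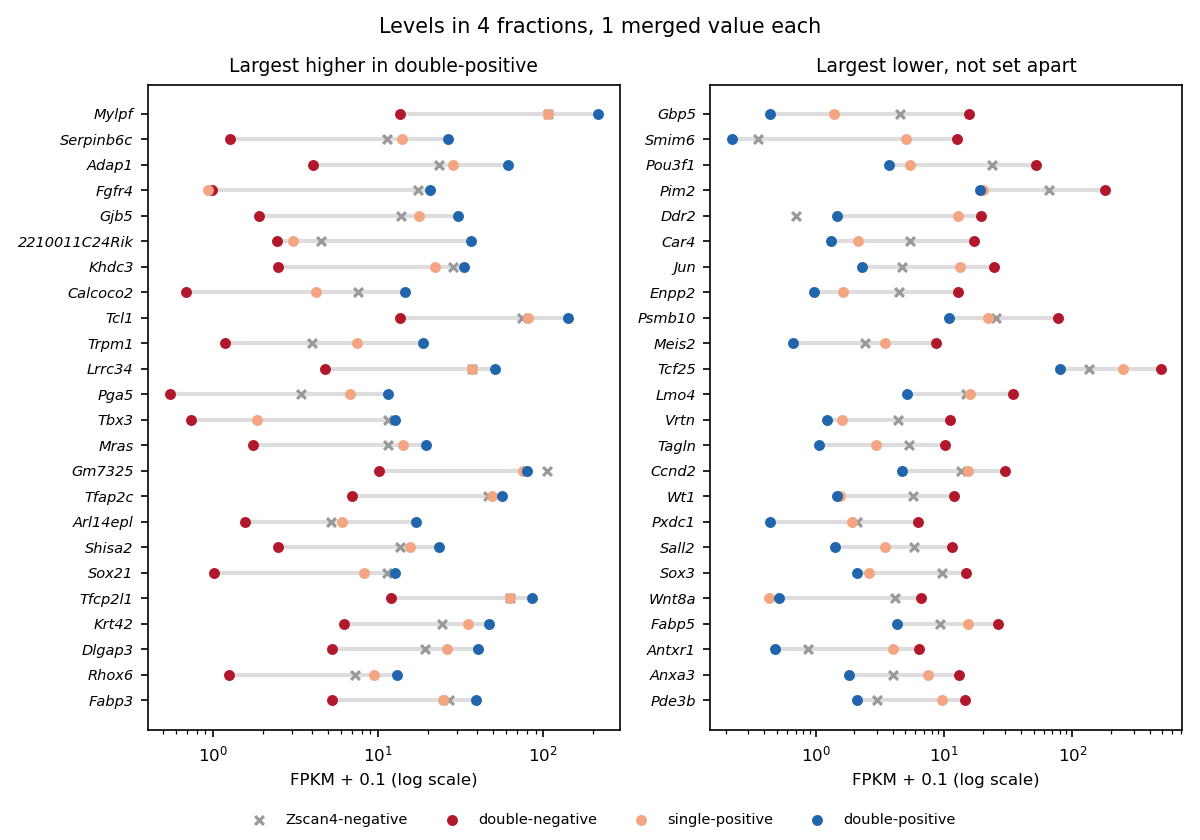
FPKM + 0.1 (log scale) of 24 of the 25 genes with the largest differences in each direction, with 1 point per fraction. In 23 of the 24 higher genes shown single-positive points lie between the double-negative and double-positive ones, and Fgfr4 is the gene whose single-positive value is the lowest.

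For most higher rows the single-positive cells were already a large part of the way. The single-positive value lay between the double-negative and double-positive ones in 498 of the 518, and in 450 at least 50% of the log2 difference was reached by single-positive cells, with a median share of 70.6%. Higher rows were chosen for a large difference between the outer 2 fractions, so a value between them follows in part from that choice. Among the 831 lower rows 261 reached 50%, with a median share of 37.1%. Only 9 higher coding or long noncoding genes with at least 5 FPKM in double-positive cells had less than 25% of their difference in single-positive cells. They include Tbx3 itself, whose reporter defined the sort, and the receptor tyrosine kinase gene Fgfr4, at 0.891, 0.837 and 20.6 FPKM. The ATP-gated channel gene P2rx7 was at 4.06, 4.36 and 29.5 and 2210011C24Rik at 2.35, 2.97 and 36.3. The noncoding RNA Dancr was at 93.5, 23.1 and 255 FPKM, lowest in single-positive cells. The proteasome subunit gene Psmb5 had by far the highest level among them, at 3891, 4140 and 9183, and the others were Grik3, Gstp2 and 2610035F20Rik. These 9 were picked by a share chosen after values had been seen. In the other reporter line Fgfr4 was at 17.5 FPKM in the Zscan4-negative fraction and 12.1 in the Zscan4-positive one, and P2rx7 at 16.1 and 7.23.

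In the list of FGF ligands and receptors, which leaves out Fgf4, Fgf5 and Fgf15 of the naive and formative lists, Fgfr4 was the 1 row past 2-fold among 10, and Fgfr1 was at 31.6, 25.7 and 28.7 FPKM. Of 14 ERK feedback genes 2 were lower, against 6.33% of all rows, Phlda1 (4.86, 4.07 and 1.13) and Dusp5 (11.9, 8.88 and 4.94). In the BMP pathway the ligand gene Bmp4 was at 7.21, 23.7 and 36.2 FPKM. Its targets Id1 (55.6, 31.3 and 16.7), Id2 (41.3, 24.0 and 11.2) and Id3 (104, 81.1 and 29.9) were lower, and Id4 was higher (4.03, 8.24 and 13.9), so the 11 compared genes gave 2 higher and 4 lower. The single-positive ratios of Id1, Id2 and Id3 were 0.562, 0.580 and 0.779, and of these only that of Id3 lay between 0.6 and 0.8. Zscan4-positive cells held Id1, Id2 and Id3 at 0.909, 1.05 and 0.701 of their double-negative level. Set-apart rows do not exceed 0.25 there. The part of the set-apart rows' source in the levels of Id1, Id2 and Id3 was not tested.

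WNT genes were evenly divided, 4 higher and 4 lower of 19. The WNT deacylase gene Notum was at 9.34, 43.8 and 49.7 FPKM, the receptor gene Fzd5 at 12.2, 26.7 and 34.2, the ligand gene Wnt7b at 0.252, 2.45 and 3.39 and the antagonist gene Sfrp1 at 5.61, 10.7 and 13.9. The ligand gene Wnt8a was at 6.49, 0.336 and 0.417, and Fzd1, Fzd2 and Tcf7 were also lower. The T-cell factor gene Tcf7, at 314, 260 and 146 FPKM, is a T lymphocyte marker too. The NODAL and TGF-beta list of 19 had 2 rows higher, 2 lower and 4 set apart. The activin subunit gene Inhbb (0.511, 4.41 and 8.50) and the convertase gene Pcsk6 (3.81, 6.08 and 10.7) were higher, and the antagonist gene Lefty1 did not reach 2-fold at 273, 129 and 147.

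Other receptors split within their families. Of 14 NOTCH genes the receptor gene Notch4, whose row overlaps H2-Ab1 in the table, was higher (3.30, 9.92 and 17.0 FPKM). The ligand gene Dll1 was set apart (64.8, 43.8 and 4.96), and Notch1 (40.1, 37.9 and 18.5), Notch3 (35.8, 23.5 and 14.5), Hes6 and Hey1 were lower. Of 14 ephrin and Eph genes Epha4 was higher (3.81, 12.1 and 16.0) and Efnb1, Efnb2, Ephb6 and Epha1 lower, with Epha1, which overlaps Zyx in the table, at 7.49, 1.95 and 2.47. The hedgehog effector genes Gli1 (11.7, 36.7 and 42.9) and Gli2 (5.75, 19.5 and 24.3) and the receptor gene Kit (7.51, 21.4 and 30.5), named here after their values had been seen, were higher. Of 23 small GTPase genes and regulators 2 were lower, 4 were set apart and 4 were higher: the ARF regulator Adap1 (3.92, 28.3 and 61.5), Mras (1.64, 14.1 and 19.5), Rasgrp2 (33.4, 83.5 and 96.7) and the ES-cell RAS gene Eras (22.2, 40.8 and 58.5).

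Metabolic and transport genes past 2-fold were found in several lists. Of 20 solute carrier genes other than amino acid transporters 5 were higher, 2 lower and 1 set apart. Of 20 glycolysis enzymes 2 were higher, against 3.94% of all rows, Ldhb (73.2, 206 and 274 FPKM) and the phosphofructokinase gene Pfkp (58.3, 139 and 193), and the list median was 0.09, which turned to the other sign with both columns scaled to equal totals. Threonine dehydrogenase, Tdh, which supplies one-carbon units in mouse ES cells, was at 137, 287 and 352, and the glycine cleavage gene Amt at 31.8, 56.6 and 69.6. These were the 2 higher of 17 threonine, serine and one-carbon genes, and Ahcy was lower (4.74, 4.18 and 1.64). A pair of fatty acid binding protein genes differed in direction, Fabp3 at 5.20, 24.8 and 39.0 and Fabp5 at 26.4, 15.3 and 4.19. The mitochondrial superoxide dismutase gene Sod2 was at 30.0, 89.6 and 127 and the glutathione synthetase gene Gss at 11.3, 28.2 and 44.4. Of 23 redox genes 3 were higher, 1 was set apart, and Gpx3 was lower (8.31, 3.26 and 3.25). In the lysosome and autophagy list 3 of 20 were higher, against 3.94% of all rows, and none lower: the autophagy receptor gene Calcoco2 (0.587, 4.1 and 14.4), the kinase gene Ulk1 (25.2, 68.8 and 95) and the lysosomal regulator Tfeb (9.14, 25.1 and 37.5). Among 10 channel and purinergic receptor genes the water channel gene Aqp3 (13.7, 33.8 and 85.1 FPKM) and P2rx7 were higher, Trpv2 and Clic1 (102, 77.5 and 45.6) were lower and 1 was set apart.

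Housekeeping lists stayed below the size rule. None of 20 DNA replication, 18 mitosis or 22 ribosomal protein genes reached 2-fold either way, with medians of 0.22, 0.43 and 0.30, and of 22 oxidative phosphorylation subunits 1 did, Cox7a1 (16.9, 28.0 and 40.2), with a median of 0.25.

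**Figure D4:**
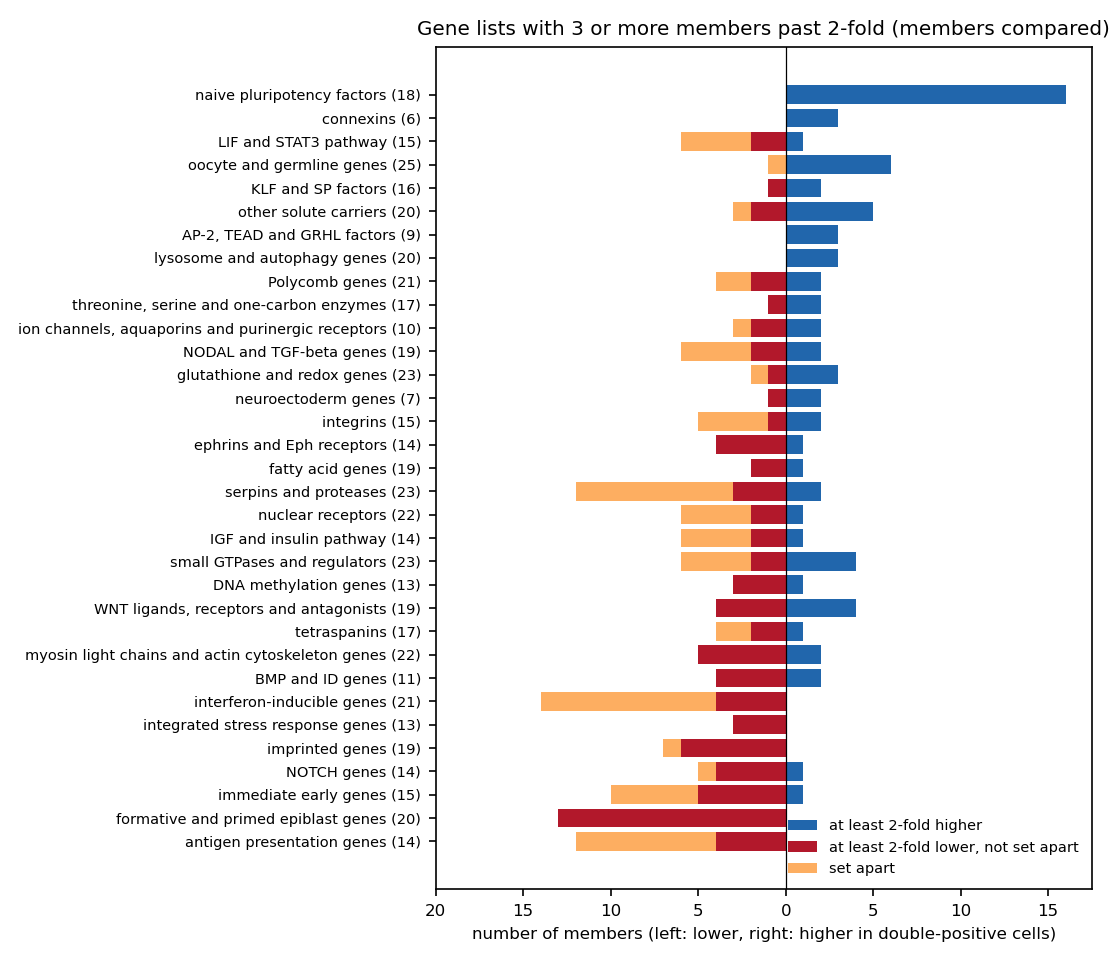
Number of members at least 2-fold higher (right), at least 2-fold lower (left) and set apart (left, stacked) in the 33 pathway lists with 3 or more members past 2-fold, with the members compared in brackets, ordered by their median difference without the rows set apart. Naive factors, with 16 of 18, reach farthest to the right, and interferon-inducible genes, with 10 of their 14 set apart, farthest to the left.

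Chromatin genes showed the de novo DNA methyltransferases on the lower side. Dnmt3a was at 42.1, 19.8 and 15.9 FPKM and Dnmt3b at 158, 66.9 and 72.0, while their cofactor Dnmt3l did not reach 2-fold at 291, 323 and 427. The dioxygenases that oxidise methylcytosine split, with Tet2 at 10.7, 17.5 and 22.4 and Tet3 at 5.65, 3.23 and 0.770. Of 21 Polycomb genes, the core subunit gene Eed (80.5, 149 and 185) and Phf19 (2.44, 7.76 and 9.23) were higher, Bmi1 (12.5, 8.19 and 1.88) and Phc2 lower, and 2 set apart. The H3K9 demethylase gene Kdm3a (58.6, 112 and 135) and the H3K4 demethylase gene Kdm5b (75.2, 125 and 152) were the 2 higher of 19 demethylase and deacetylase genes, and none was lower apart from Hdac7, which was set apart (15.3, 10.5 and 1.05). Of 19 imprinted genes none was higher, H19 was set apart (146, 102 and 2.16), and 6 were lower, against 6.33% of all rows: Peg10 (98.5, 25.8 and 23.2), its neighbour Sgce, Cdkn1c (72.5, 19.3 and 24.7), Gnas, Rian and Dlk1.

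The lower rows differed in their single-positive level, divided here at 0.5 of the double-negative one after the data were seen. Of the 859 set-apart rows 51 were under that ratio too. In 195 of the 831 the single-positive level was under 0.5 of the double-negative one, with medians of 6.53, 1.80 and 1.22 FPKM. These hold 10 of the 13 lower formative genes, the imprinted Peg10 and Cdkn1c, and, among the 25 largest lower differences, the zinc finger factor Wt1 (11.8, 1.45 and 1.37 FPKM), Vrtn (11.1, 1.51 and 1.14) and the homeobox gene Meis2 (8.54, 3.35 and 0.568). Another Meis2 row, with a difference of -2.62, is absent from the 25 largest, which leave out set-apart rows. In the other 636 lower rows the medians were 9.13, 6.55 and 2.73. In all, 398 of the 831, or 47.9%, had a single-positive ratio between 0.6 and 0.8, as did 73.6% of the set-apart rows and 9.77% of all other rows. Lower rows were chosen for a low double-positive level, and in 784 of the 831 the single-positive value lay between. The gap to rows not so chosen therefore follows in part from that choice. How far the source of the set-apart rows adds to these lower rows was not tested.

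**Figure D5:**
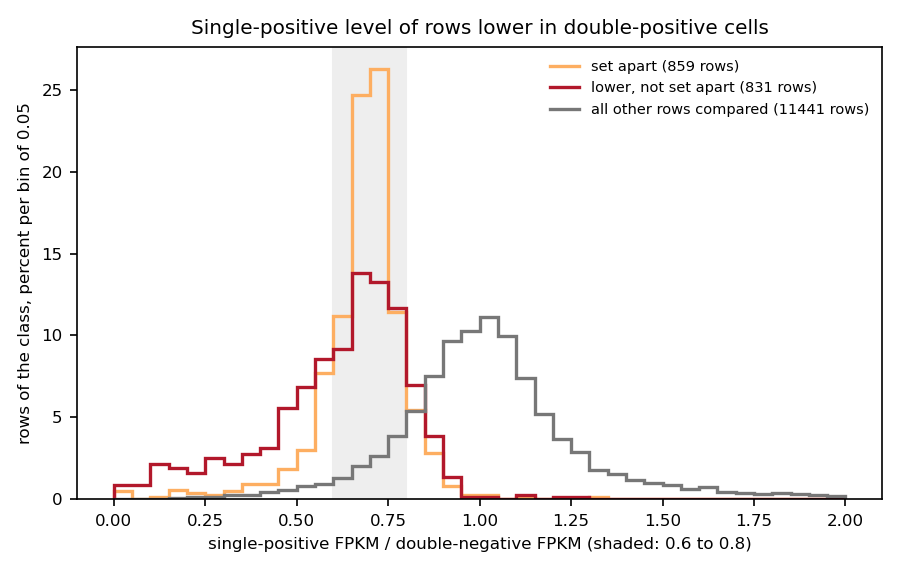
Distribution of the single-positive to double-negative FPKM ratio (bins of 0.05, percent of each class) in set-apart rows, lower rows not set apart and all other rows, with 0.6 to 0.8 shaded. Set-apart rows peak in the shaded range, where 47.9% of the lower rows lie as well, and 195 lower rows form a tail under 0.5.

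Lists differed in how many lower members had ratios in that range. Of 22 myosin and actin cytoskeleton genes 5 were lower, Vim (432, 337 and 110 FPKM), Myl9, Lmna, Tpm4 and Tpm2, and all 5 had ratios between 0.6 and 0.8. The immediate early gene Jun was at 24.3, 13.3 and 2.19, and of its list of 15 immediate early genes 1 was higher, 5 were lower, 3 of them with ratios between 0.6 and 0.8, and 5, Fos among them, were set apart. The collagen receptor gene Ddr2 was at 19.3, 12.7 and 1.36 and missed the set-apart rule through Zscan4-positive cells, where it was at 5.25. Smooth muscle markers summed to 89.8, 57.8 and 19.8 FPKM, and of 6 compared 2 were set apart and 2, Tagln and Cnn1, were lower, with ratios of 0.286 and 0.307.

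Interferon-inducible and antigen presentation genes had both patterns. Of 21 interferon-inducible genes 10 were set apart, 4 were lower and none was higher, and of 14 antigen presentation genes 8 were set apart, 4 were lower and none was higher. These counts cover the listed genes only. Outside both lists Oas1g and Oas1a were higher by 1.35 and 2.07 on the log2 scale, and H2-M5 by 1.52. The guanylate-binding protein gene Gbp5 was at 15.6, 1.29 and 0.341 FPKM, with 4.44 in Zscan4-negative cells. It overlaps Gbp3 and Gbp7 in the table, both set apart. The immunoproteasome subunit gene Psmb10 was at 76.7, 21.8 and 10.9, the transcription factor gene Irf1 at 84.2, 35.4 and 25.2, Bst2 at 255, 89.3 and 72.1 and the peptide loading gene Tapbp at 51.0, 24.3 and 14.7. Dividing single-positive by double-negative values gave 0.0826 for Gbp5, 0.284 for Psmb10, 0.421 for Irf1, 0.350 for Bst2 and 0.475 for Tapbp. The class I genes H2-K1 and H2-D1 were at 38.1, 18 and 7.22 and at 32.9, 18.4 and 5.81, and the class I light chain gene B2m, set apart, at 240, 166 and 26.1.

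Promoters of the higher genes were searched for letters that these factors are known to prefer, AAGGTCA for the estrogen-related receptors, to which Esrrb belongs, and AGGTGTGA for T-box factors, on both strands of the 250 bases before to 50 after each start in RefSeq (GRCm38.p6). A promoter was found for 368 of 478 higher genes and for 10037 of 12489 genes compared. The receptor letters were in 31 of the 368 (8.42%) and in 393 of the 10037 (3.92%). They were in 2 of 131 lower genes with a single-positive ratio under 0.5 (1.53%), 20 of 468 other lower genes (4.27%) and 26 of 587 set-apart genes (4.43%). Among the 49 genes with a difference of at least 2 they were in 2 (4.08%), the connexins Gjb5 and Gjb1, and of 14 naive factors with a promoter 1, Zfp57, held them. The T-box letters were in 4 of 368 (1.09%) and in 100 of 10037 (0.996%). Base composition differed too, with a median of 5 CpG per 100 bases in promoters of higher genes and 7 in all. A match is a run of letters and not a bound site. The 6 genes with the largest difference, at least 5 FPKM and a match before their start are printed because they show where these letters lie, with the matched letters in capitals, 5′ to 3′ on the gene's strand.
Gjb5 (chr4:127358325-127358384, minus strand): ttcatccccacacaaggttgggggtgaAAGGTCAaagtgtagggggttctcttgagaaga
Gjb1 (chrX:101381983-101382042, plus strand): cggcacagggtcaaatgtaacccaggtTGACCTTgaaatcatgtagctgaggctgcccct
Ankrd45 (chr1:161142601-161142660, plus strand): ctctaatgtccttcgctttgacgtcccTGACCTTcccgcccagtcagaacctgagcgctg
Triml2 (chr8:43180314-43180373, plus strand): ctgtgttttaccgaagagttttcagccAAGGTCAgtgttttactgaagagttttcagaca
Mitf (chr6:97806879-97806938, plus strand): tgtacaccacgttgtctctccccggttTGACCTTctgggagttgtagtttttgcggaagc
Ckmt1 (chr2:121357570-121357629, plus strand): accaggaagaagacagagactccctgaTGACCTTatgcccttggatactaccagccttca
In Gjb5, Triml2 and the others the letters lie upstream of the start, 186 bases before it in Gjb5 and 101 in Gjb1. Triml2 was at 22.4, 53 and 66.5 FPKM, the pigment and osteoclast factor gene Mitf at 1.24, 5.31 and 5.45, the mitochondrial creatine kinase gene Ckmt1 at 4.23, 9.07 and 13.0 and Ankrd45 at 3.09, 6.92 and 11.9.

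At the edge of the size rule, with rows under 5 FPKM in both fractions left aside, Klf15 (5.81, 9.27 and 12.6 FPKM), Aim1l and Tet2 were the last higher rows inside it, and Mtss1 (27.9, 45.6 and 56.7), Tle1 and Atp6v0a4 the first outside. On the lower side Med14 (26.9, 15.5 and 12.9), Asb13 and Ppfibp1 were inside and Rap1gds1 (29.5, 18.8 and 14.3), Fabp6 and Plgrkt outside. The set-apart rule ended between Syt13 (6.50 FPKM in double-negative and 1.62 in Zscan4-negative cells) or Mxd4 (17.2 in double-negative and 4.29 in Zscan4-positive cells) and, outside it, Ano10 (8.92 and 2.23) or Creb3l1 (16.5 and 4.13), again in double-negative and Zscan4-positive cells.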

How the data were processed

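Per the labels' protocols, total RNA came from Qiagen RNeasy columns and the libraries from the NEBNext Ultra chemistry. The submitters' processing notes name the build mm10, TopHat2 2.0.14, Cuffdiff 2.2.1, Cufflinks and bcl2fastq 1.8.4. Not given in the sources used here: the annotation, the strand setting, and how the 2 libraries of a fraction were merged. The authors deposited FPKM values, 1 per row and fraction. FPKM is scaled to all mapped fragments, so depth is unknown, and low values of the double-negative and double-positive columns showed no common step from which reads could be recovered. Reads of multicopy genes can be split. Very short RNAs can take extreme values.

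The difference of log2(FPKM + 1), pseudocount 1, understates changes of low genes. Rows with at least 1 FPKM in either column were compared. Of these, 12632 had a symbol found in RefSeq, 12510 of them for a coding gene or long noncoding RNA. A total of 60 pathway lists and 12 lists of other cell types, 1281 entries in all, was used. The members, the rule and the lists were chosen with earlier results of these data known. Named were the 25 largest differences in each direction without rows set apart (at least 5 FPKM), up to 4 members past 2-fold and the 2 highest others of each list, the 4 markers, 3 rows at each edge and the 10 highest set-apart rows; the text prints a selection. Gli1, Gli2, Kit, Hprt, Zic5, further list members and the genes with printed promoters were named after their values had been seen. Table starts count from 0 and are written from 1. Alternatives covered the pseudocount, the filter, scaling, summed rows, the kind of symbol and the set-apart ratio. The calling step was tested on simulated data. Python 3.11.15, pandas 2.3.3, numpy 2.4.6 and matplotlib 3.10.9 were used. Some genes are not reported here.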

Additional observations from a re-analysis of the deposited data

How the results depend on the processing

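No paired analysis was possible because the table holds 1 merged value per fraction, and for the same reason no replicate could be left out. A pseudocount of 5 left 261 higher and 239 lower rows, and a pseudocount of 0.1 gave 716 and 1336. With it, 12 list medians were at least 1 in size in place of 11, and 5 were with a pseudocount of 5. A set-apart ratio of 0.5 left 308 lower rows and set apart 1572. A ratio of 0.1 set apart 501, no filter 1698 and a 5 FPKM filter 398. Of alternatives added after the data were seen, keeping only lower rows whose single-positive level was under 0.5 of the double-negative one left 195, and dropping those at 0.6 to 0.8 left 433. The share of higher genes with the receptor letters was 2.15 times that of all genes, and 3.41 times with 2 more letters before them, on 4 against 32 genes. Equal FPKM totals moved the median of all rows from -0.02 to -0.13 and gave 427 higher and 1011 lower rows. The higher share of called rows was then 29.7% in place of 38.4%, and 52.2% with a pseudocount of 5. The other settings stayed within 1.5 times the reported counts. The 25 genes with the largest differences in each direction and Esrrb, 51 in all, kept their sign and stayed past 2-fold under the 4 settings of pseudocount and scaling. For Meis2 the row followed there was its other one, at -2.62, and not the row with the levels given above. Genes nearer to 2-fold, such as those at the edge of the rule, were not followed there. With equal totals 8 of 60 list medians changed sign, all under 0.1 in size. Without replicate values no difference has an error.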

Other observations

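Neighbouring genes were also looked at. Pairs were coding or long noncoding genes adjacent among the rows compared, so genes that were not compared can lie between them. Of 8859 such pairs that do not overlap and lie within 100 kb, 34 had both genes at least 2-fold higher in double-positive cells, 43 both lower and 19 opposite. At least 1 gene was higher in 650 pairs and at least 1 lower in 943. Dppa3 and Nanog on chromosome 6 were both higher (2.42 and 2.27 on the log2 scale), as were the metallothionein genes Mt2 and Mt1 on chromosome 8 (1.41 and 1.14), the lipoprotein genes Apoc1 and Apoe on chromosome 7 (1.5 and 1.48) and the X-linked Rhox6 and Rhox9 (2.69 and 2.61). Mylpf lies next to Tbc1d10b, which was higher by 1.15. Both lower were the imprinted Sgce and Peg10 (-2.18 and -2.04), Commd3 and Bmi1 (-2.34 and -2.22), the carbonic anhydrase genes Car3 and Car2 (-1.92 and -2.03) and the proteasome activator genes Psme1 and Psme2 (-1.36 and -1.55). The growth factor genes Fgf4 and Fgf15 on chromosome 7 were opposite, at 1.43 and -1.32. The counting could share reads between close neighbours, and the strand setting is unknown here.

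A few short RNAs had the most extreme differences. Of the 518 higher rows 4 were miRNAs, 2 snoRNAs, and 3 other short structured RNAs. Mir6992, which overlaps Stx5a, was listed at 114 FPKM in double-positive and 257 in Zscan4-negative cells and at 0 in double-negative, single-positive and Zscan4-positive cells. Snora2b, which overlaps Kansl2 and Snora34, was listed at 178 FPKM in double-negative and 155 in Zscan4-negative cells and at 0 in the others.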
